A study of Homo sapiens with 9 samples.

Results

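The genes described here are 32 enzymes of purine and pyrimidine nucleotide synthesis, both de novo and salvage, chosen by name from the pathway and found in the count table by their Ensembl identifiers. All 32 were in the table of 60234 genes, and all 32 had enough reads to be among the 15847 genes tested. The RNA came from Ramos, a human B cell line derived from a Burkitt lymphoma. Cells were untreated (0 h) or exposed to CHIR99021, an inhibitor of the kinase GSK-3, at 3 µM for 3 h or for 6 h. Each time had 3 biological replicates. No library came from untreated cells cultured for 3 h or 6 h, so the inhibitor and the time in culture cannot be told apart.

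Nucleotide synthesis starts from phosphoribosyl pyrophosphate (PRPP). De novo purine synthesis builds the purine ring step by step on PRPP until inosine monophosphate (IMP) is made, and IMP is then turned into AMP or GMP. De novo pyrimidine synthesis makes uridine monophosphate (UMP) first, from which CTP and the deoxynucleotides of thymidine and cytidine follow. Salvage enzymes instead recover free bases and nucleosides. In dividing B cells these pathways feed RNA, ribosome and DNA synthesis, and many of their genes are known targets of MYC, which GSK-3 marks for degradation.

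Most of the nucleotide synthesis genes were higher in CHIR99021, and 4 were lower at both times. At 3 h against 0 h, 19 of the 32 rose, 4 fell and 9 did not pass an adjusted p of 0.05 (edgeR quasi-likelihood test, adjusted over all genes). Over all genes tested 66.3% passed in this comparison, 32.8% higher and 33.5% lower. At 6 h against 0 h, 25 rose, 4 fell and 3 did not pass, where 70.8% of all genes passed, 35.7% higher and 35.0% lower. Between 3 h and 6 h, 15 rose further or began to rise and 2 fell, with 43.4% of all genes passing, 21.5% higher and 21.9% lower. The median log2 fold change of the 32 was 0.17 at 3 h and 0.37 at 6 h, against -0.01 and 0.02 for all genes tested. The changes were small in size. Only 4 members were at least 1.5-fold higher at 3 h (UMPS, IMPDH1, UCK2 and CTPS1), where 15.4% of all genes were, and 8 at 6 h, where 18.3% were (UMPS, IMPDH1, PFAS, NME1, PAICS, ATIC, ADSL and CAD). The libraries of treated and untreated cells did not overlap for 25 members at 3 h and 29 at 6 h, where 70.2% and 71.7% of all genes did not overlap. Between 3 h and 6 h, 24 members did not overlap, where 55.2% of all genes did not, and 1 (CAD) was at least 1.5-fold higher, where 6.87% of all genes were.

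Levels are given as CPM, read counts normalised to the size of each library, after TMM scaling. TMM sets the bulk of genes to no change, so every direction here is relative to the typical gene. This choice matters for changes of this size. With scaling by library size alone the median of all genes moved to -0.22 at both times, and the members then divided into 11 higher and 9 lower at 3 h, and 17 higher and 6 lower at 6 h. Over all genes that scaling gave 3468 higher and 7451 lower at 3 h, against 5201 and 5304 with TMM. At 6 h it gave 3656 higher and 7504 lower, against 5660 and 5553 with TMM. Of the TMM calls, 11 of the 19 rises at 3 h, 17 of the 25 at 6 h and all 4 falls at each time passed under each of 4 scalings (TMM, DESeq2 size factors, upper-quartile and library size). In raw share of reads, the 32 genes took 0.580% ± 0.00928 at 0 h, 0.584% ± 0.00413 at 3 h and 0.638% ± 0.00654 at 6 h (SD, n = 3 each), so their raw share at 3 h lay within the spread of the untreated libraries.

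**Figure D1:**
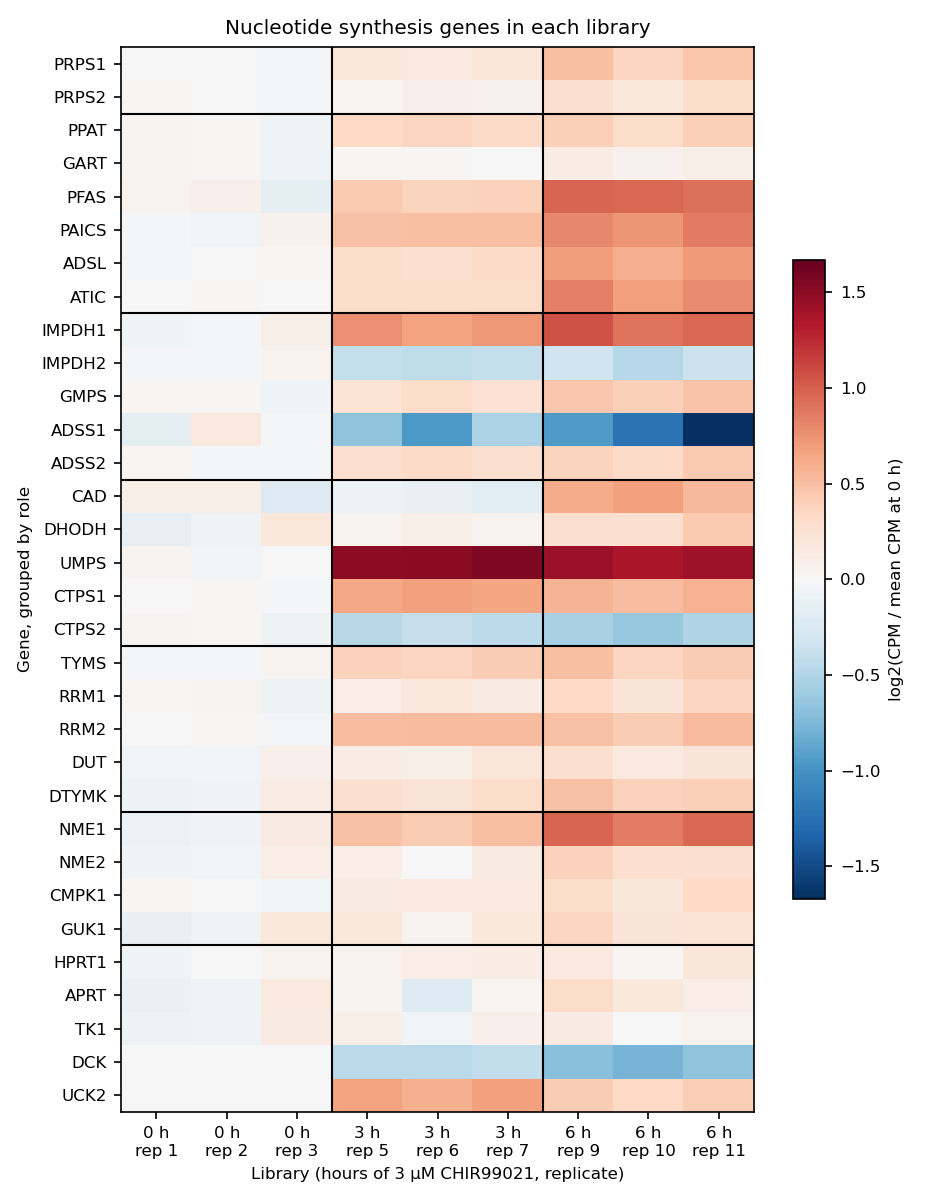
Heat map of the 32 genes (rows, grouped by role in the order of the text) in the 9 libraries (columns, by hours in CHIR99021 and replicate number), coloured by log2 of CPM over the mean CPM at 0 h, with TMM scaling. UMPS is the deepest red row at 3 h and 6 h, PFAS, PAICS, ADSL, ATIC and NME1 are darker at 6 h than at 3 h, and IMPDH2, ADSS1, CTPS2 and DCK are blue in all 6 treated libraries.

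The reads assigned to genes numbered 46359911 to 52880876 in a library. At these depths a count of 0 allows 0.0567 to 0.0647 CPM (counting error only). ADSS1 had 14 to 67 reads per library, and the other 31 members 689 to 43344. The 3 times separated on the leading principal component, which held 68.6% of the variance. Untreated replicate 3 differed from replicates 1 and 2 by a chi-square of 29.9 and 26.7 per degree of freedom, against 1.7 between those 2, and calls that depend on it are named with the gene or with the time courses. To a lesser degree 6 h replicate 10 stood apart (12.8 and 10.3, against 5.7 between replicates 9 and 11). So did 3 h replicate 6 (8.07 and 7.77, against 2.59 between replicates 5 and 7). B cell markers were present, with CD79A at 509 ± 46.2 CPM and PAX5 at 409 ± 44.9 CPM in untreated cells (SD, n = 3). The markers of T and NK cells (7 genes) summed to at most 0.215 CPM in any library. Those of myeloid cells (6 genes) summed to at most 0.208 CPM, and those of epithelium and fibroblasts (6 genes) to at most 0.0358 CPM, with no read of EPCAM.

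Both genes of the first step, PRPP synthesis, were higher at 6 h with TMM scaling. PRPS1 and PRPS2 encode the PRPP synthetases. PRPS1 was at 114, 114 and 112 at 0 h, 128, 127 and 130.1 at 3 h and 160.2, 146 and 157 CPM at 6 h. All 3 libraries of each time stood above those of the time before, and the log2 fold changes were 0.18 (SE 0.0479, edgeR adjusted p = 0.00476) at 3 h and 0.44 (SE 0.0479, adjusted p = 1.48e-06) at 6 h, of which the 3 h call was lost with upper-quartile factors (0.02) and, with the sign turned, with library size alone (-0.02). PRPS2 was at 85.0, 83.6 and 81.1 at 0 h, 85.1, 88.5 and 87.6 at 3 h and 99.98, 94.0 and 102 CPM at 6 h. It rose at 6 h (log2 change 0.24, SE 0.0486, adjusted p = 0.000455), a call lost with upper-quartile factors and library size alone, and did not pass at 3 h (log2 change 0.06, SE 0.0486, adjusted p = 0.258), where library size alone gave a fall (-0.14, adjusted p = 0.0111).

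Of the 6 genes that assemble the purine ring, 5 rose at 3 h and the same 5 rose at 6 h, and 4 of them rose again between 3 h and 6 h. PAICS is the bifunctional enzyme of the middle of the pathway. It was at 521, 512 and 559 at 0 h, 747, 754 and 749 at 3 h and 922, 884 and 966 CPM at 6 h. The treated libraries lay wholly above the untreated ones and the 6 h libraries above the 3 h ones, with log2 fold changes of 0.50 (SE 0.0498, edgeR adjusted p = 7.9e-07) at 3 h, 0.80 (SE 0.05, adjusted p = 5.01e-09) at 6 h and 0.30 (SE 0.0497, adjusted p = 0.000269) between them. Per kilobase of exon PAICS ranked 5th of the 32 at 0 h, with 70.6 ± 3.26 CPM per kb, and first at 6 h with 122.9 ± 5.42 CPM per kb (SD, n = 3 each).

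PPAT encodes the amidotransferase that commits PRPP to purine synthesis. It was at 115, 113 and 106 at 0 h, 139, 143 and 138 at 3 h and 147, 138 and 147 CPM at 6 h. It rose at 3 h (log2 change 0.33, SE 0.0494, edgeR adjusted p = 3.76e-05), and the 6 h libraries overlapped the 3 h ones (log2 change 0.03, SE 0.0493, adjusted p = 0.605). PPAT (GRCh38 chromosome 4, minus strand) and PAICS (plus strand) start back to back. Their transcripts are read away from a shared stretch of 136 bases between the RefSeq start of PPAT and 1 of those of PAICS. PAICS has other RefSeq starts, for which the stretch would differ. The stretch at chr4:56435616-56435751 is shown on the PAICS strand, because both genes rose at 3 h and start on either side of it.
PPAT and PAICS: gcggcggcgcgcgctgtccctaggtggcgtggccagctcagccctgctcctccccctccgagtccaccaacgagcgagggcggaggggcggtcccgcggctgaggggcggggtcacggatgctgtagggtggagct
No CACGTG, the E-box letters that MYC with its partner MAX is known to bind, lies in these bases. One lies 41 bases into PAICS as counted from that start, and upstream of a later PAICS start. Of the 30 members with an entry among the RefSeq promoter windows (GRCh38.p14, 250 bases before to 50 after a start), 6 held CACGTG, which reads the same on both strands, in at least 1 window, against 8.77% of 27305 genes. PPAT and PAICS count 1 shared match among these 6. The 30 members had 47 windows and the 27305 genes 35116, so members had more windows per gene in which to match. The 27305 genes were not limited to those tested here. The matches are set out below with CACGTG in capitals and 12 bases on the left, because they fall in genes that moved in opposite directions.
PAICS, chr4:56435780-56435809: ctgtatttgctgCACGTGgaaatctccgtt
ATIC, chr2:215312001-215312030: gggccggcgggcCACGTGataagcccggaa
ATIC, chr2:215312076-215312105: ctcctacctgcgCACGTGgtgccgccgctg
NME1, chr17:51153581-51153608: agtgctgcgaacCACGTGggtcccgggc
DHODH, chr16:72008573-72008602: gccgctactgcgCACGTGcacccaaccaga
DCK, chr4:70993521-70993550: cgccccggccttCACGTGacctggcgtgcg
ATIC, NME1, PPAT and PAICS rose at 3 h, DHODH did not pass until 6 h, and DCK fell. UMPS, IMPDH1 and CTPS1, which rose more at 3 h than any of these, had no CACGTG in their windows, like most of the 30 members. Only CACGTG was searched for and only in these windows, so other letters or sites farther away would be missed. Whether MYC acts on any of these genes was not tested. A match is a description of the letters and not a binding site. MYC mRNA fell, with 558 ± 22.6 CPM at 0 h, 447 ± 22.2 CPM at 3 h and 349 ± 12.01 CPM at 6 h (SD, n = 3 each) and log2 fold changes of -0.32 (SE 0.0522, edgeR adjusted p = 9.36e-05) at 3 h and -0.68 (SE 0.0525, adjusted p = 4.5e-08) at 6 h. GSK-3 acts on the MYC protein, whose level was not measured here and cannot be read from the mRNA.

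PFAS makes the amidine intermediate of the ring. It was at 67.6, 68.5 and 57.9 at 0 h, 87.5, 83.3 and 84.6 at 3 h and 127, 126 and 122 CPM at 6 h. It had the largest rise of the 6 at 6 h, 0.95 (SE 0.0616, edgeR adjusted p = 7.21e-09), after 0.40 (SE 0.0615, adjusted p = 5.91e-05) at 3 h. Untreated replicate 3 was the lowest of its 9 libraries. ATIC is the bifunctional enzyme of the last steps to IMP. It was at 139, 142 and 139 at 0 h, 172, 171 and 173 at 3 h and 249.4, 224 and 242 CPM at 6 h. Its 3 h libraries lay within 2 CPM of each other, and it rose by a log2 change of 0.30 (SE 0.0486, edgeR adjusted p = 8.93e-05) at 3 h and a further 0.47 (SE 0.0485, adjusted p = 5.33e-06) by 6 h. ADSL splits off fumarate in both IMP and AMP synthesis. It was at 100.2, 101 and 105 at 0 h, 125, 124 and 127 at 3 h and 166, 156 and 168 CPM at 6 h. Its rise passed at 3 h (log2 change 0.30, SE 0.0471, adjusted p = 6.91e-05, lost with library size alone) and at 6 h (log2 change 0.68, SE 0.0471, adjusted p = 1.5e-08).

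GART, the trifunctional enzyme of 3 ring steps, was the 1 of the 6 that did not pass. It was at 224, 221 and 208 at 0 h, 222, 219.8 and 219 at 3 h and 237, 228 and 232 CPM at 6 h. The treated and untreated libraries overlapped at 3 h (log2 change 0.02, SE 0.0451, edgeR adjusted p = 0.743), and at 6 h they did not overlap but the change did not pass (log2 change 0.09, SE 0.0452, adjusted p = 0.0756). GART was called lower at 3 h with upper-quartile factors (-0.13) and at both times with library size alone (-0.18 and -0.14). It was called higher at 6 h once trends with GC content and length were removed (0.10, adjusted p = 0.0249), an alternative that was added after the data were seen. GART shares 275 bases of exon with SON on the opposite strand, and SON had 234% of the reads of GART and was higher at 3 h (log2 fold change 0.87). The assignment of reads in the shared bases is uncertain, since no source used here gives the strand setting.

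**Figure D2:**
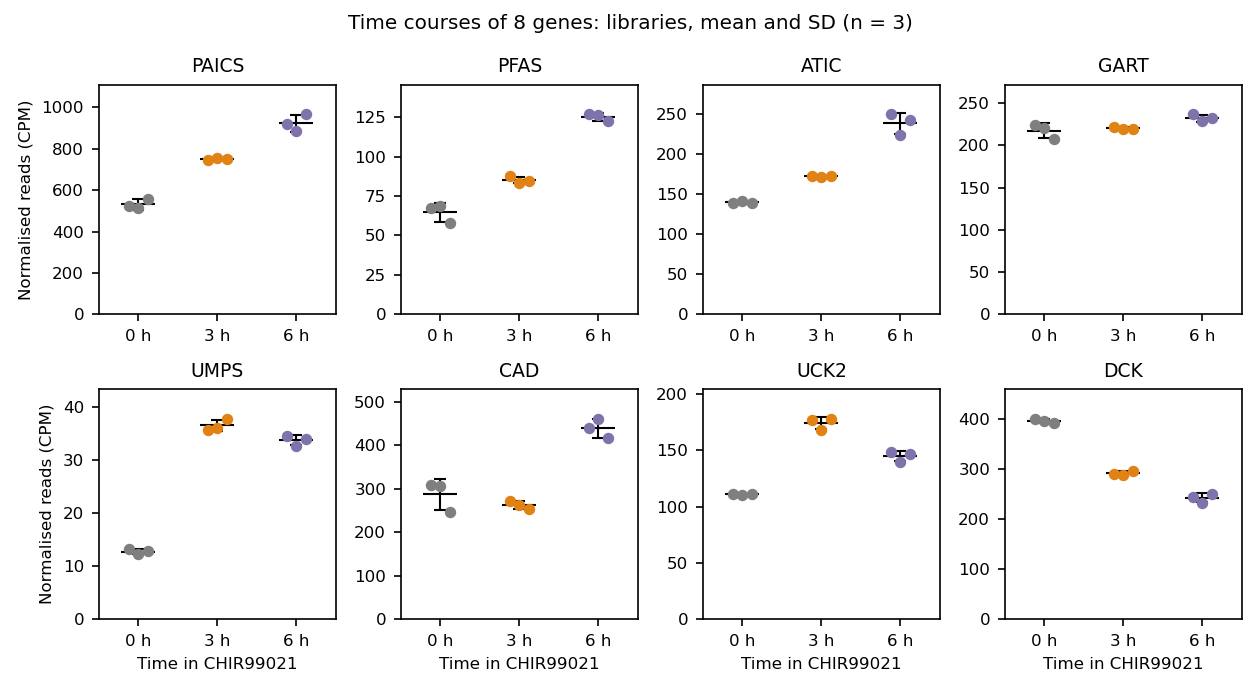
Normalised reads (CPM, TMM scaling) of 8 genes at 0 h, 3 h and 6 h of CHIR99021; dots are libraries, the bar is the mean and the whisker the SD of 3, and each axis starts at 0. PAICS, PFAS and ATIC step up at both times, GART stays between 208 and 237 CPM, UMPS rises at 3 h, CAD only after 3 h, UCK2 peaks at 3 h and DCK steps down.

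The branch from IMP to guanine nucleotides showed opposite changes of its 2 isozymes. IMPDH1 and IMPDH2 encode IMP dehydrogenases, which catalyse the rate-limiting step to GMP. In GRCh38 IMPDH1 lies on chromosome 7, 128392277 to 128410252, minus strand, and IMPDH2 on chromosome 3, 49024325 to 49029408, minus strand. IMPDH1 was at 108, 112 and 122 at 0 h, 193, 181 and 189 at 3 h and 238, 213 and 221 CPM at 6 h. Every treated library was higher than every untreated one, and IMPDH1 rose by a log2 change of 0.72 (SE 0.0582, edgeR adjusted p = 9.05e-08) at 3 h and 0.98 (SE 0.0584, adjusted p = 3.19e-09) at 6 h. IMPDH2 is the form known to predominate in proliferating lymphocytes. It was at 350.1, 355 and 374 at 0 h, 272, 267 and 273 at 3 h and 286, 258 and 281 CPM at 6 h. Here every treated library was lower than every untreated one (log2 change -0.41, SE 0.0504, edgeR adjusted p = 6.3e-06 at 3 h, and -0.39, SE 0.0504, adjusted p = 9.75e-06 at 6 h), and the 3 h and 6 h libraries overlapped. The 10 named IMPDH1 pseudogenes in the table each had at most 0.873% of the reads of IMPDH1. Per kilobase of exon IMPDH2 was the highest of the 32 genes at 0 h, with 129.7 ± 4.57 CPM per kb, and still exceeded IMPDH1 at 6 h, with 99.3 ± 5.34 CPM per kb against 61.2 ± 3.55 CPM per kb for IMPDH1 (SD, n = 3 each).

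GMPS aminates XMP to GMP. It was at 198, 196 and 185 at 0 h, 226, 239 and 229 at 3 h and 264, 255 and 267 CPM at 6 h and rose at 3 h (log2 change 0.26, SE 0.0469, edgeR adjusted p = 0.000223, lost with library size alone) and at 6 h (log2 change 0.44, SE 0.047, adjusted p = 1.22e-06). ADSS2 is the non-muscle adenylosuccinate synthetase on the branch to AMP. It was at 68.8, 66.8 and 66.9 at 0 h, 81.8, 84.1 and 81.6 at 3 h and 87.6, 84.4 and 91.7 CPM at 6 h. It rose at 3 h (log2 change 0.29, SE 0.0478, adjusted p = 0.000102, lost with library size alone) and 6 h (log2 change 0.38, SE 0.0478, adjusted p = 6.56e-06). ADSS1, the muscle isozyme, was barely expressed and fell, at 0.930, 1.152 and 1.00 at 0 h, 0.643, 0.529 and 0.715 at 3 h and 0.532, 0.438 and 0.323 CPM at 6 h. Its log2 fold changes were -0.71 (SE 0.201, edgeR adjusted p = 0.00646) at 3 h and -1.24 (SE 0.218, adjusted p = 0.000154) at 6 h. The pseudogene GMPSP1 had 8.51% of the reads of GMPS and was higher by 0.23 at 3 h and 0.28 at 6 h on the log2 scale, and PPATP1 had 5.83% and PAICSP4 3.76% of the reads of their parent genes, so a share of these counts may be misplaced.

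In de novo pyrimidine synthesis, UMPS rose at 3 h, while CAD and DHODH rose at 6 h and did not pass at 3 h. UMPS, the bifunctional enzyme that makes UMP, had the largest change of the 32 genes. It lies on chromosome 3, 124730366 to 124749273, plus strand (GRCh38). It was at 13.1, 12.3 and 12.8 at 0 h, 35.7, 36.1 and 37.7 at 3 h and 34.6, 32.7 and 33.9 CPM at 6 h. All 6 treated libraries stood far above the untreated ones, with no overlap. The log2 fold changes were 1.52 (SE 0.0541, edgeR adjusted p = 5.75e-11) at 3 h and 1.40 (SE 0.0543, adjusted p = 5.53e-11) at 6 h (2.87-fold and 2.65-fold). UMPS was nonetheless low per kilobase of exon, at 4.45 ± 0.128 CPM per kb at 6 h against 1.68 ± 0.0553 CPM per kb at 0 h (SD, n = 3 each), which ranked 30th and 31st of 32.

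CAD is the trifunctional enzyme of the first 3 steps. It was at 308, 306 and 246 at 0 h, 270.4, 262 and 253 at 3 h and 439.7, 459 and 416 CPM at 6 h. At 3 h its libraries lay inside the untreated range (log2 change -0.13, SE 0.0763, edgeR adjusted p = 0.15), and at 6 h all 3 lay above every other library (log2 change 0.61, SE 0.0764, adjusted p = 8.23e-06 against 0 h, and 0.74, SE 0.0766, adjusted p = 7.5e-06 against 3 h). The 3 h result rested on untreated replicate 3, without which CAD was lower at 3 h (-0.23, adjusted p = 0.000304), as it also was with upper-quartile factors (-0.28) and library size alone (-0.33). DHODH is the mitochondrial enzyme between CAD and UMPS. It was at 20.1, 21.3 and 24.8 at 0 h, 22.9, 23.6 and 23.1 at 3 h and 26.6, 26.6 and 29.9 CPM at 6 h. It rose at 6 h (log2 change 0.33, SE 0.076, edgeR adjusted p = 0.00152, lost with upper-quartile factors and library size alone) and did not pass at 3 h (log2 change 0.07, SE 0.0763, adjusted p = 0.419), though it did without untreated replicate 3 (0.16, adjusted p = 0.0284).

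The CTP synthetases again moved in opposite directions. In GRCh38 CTPS1 lies on chromosome 1, 40979335 to 41012565, plus strand, and CTPS2 on chromosome X, 16588003 to 16712936, minus strand. CTPS1 is the form that activated lymphocytes are known to depend on. It was at 164, 168 and 163 at 0 h, 259, 264 and 261 at 3 h and 246, 235 and 247 CPM at 6 h, with no overlap between treated and untreated libraries (log2 change 0.66, SE 0.0435, edgeR adjusted p = 1.13e-08 at 3 h, and 0.56, SE 0.0435, adjusted p = 5e-08 at 6 h). CTPS2 was at 39.8, 39.6 and 36.4 at 0 h, 27.9, 29.4 and 28.4 at 3 h and 26.4, 24.9 and 27.2 CPM at 6 h and fell at both times (log2 change -0.43, SE 0.0564, adjusted p = 1.09e-05, and -0.56, SE 0.0568, adjusted p = 7.5e-07), also without overlap. Both genes were slightly lower at 6 h than at 3 h, at -0.11 for CTPS1 (adjusted p = 0.0627) and -0.13 for CTPS2 (adjusted p = 0.0943), which did not pass. Without untreated replicate 3 both of these steps passed (adjusted p = 0.0208 for CTPS1 and 0.0375 for CTPS2).

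**Figure D3:**
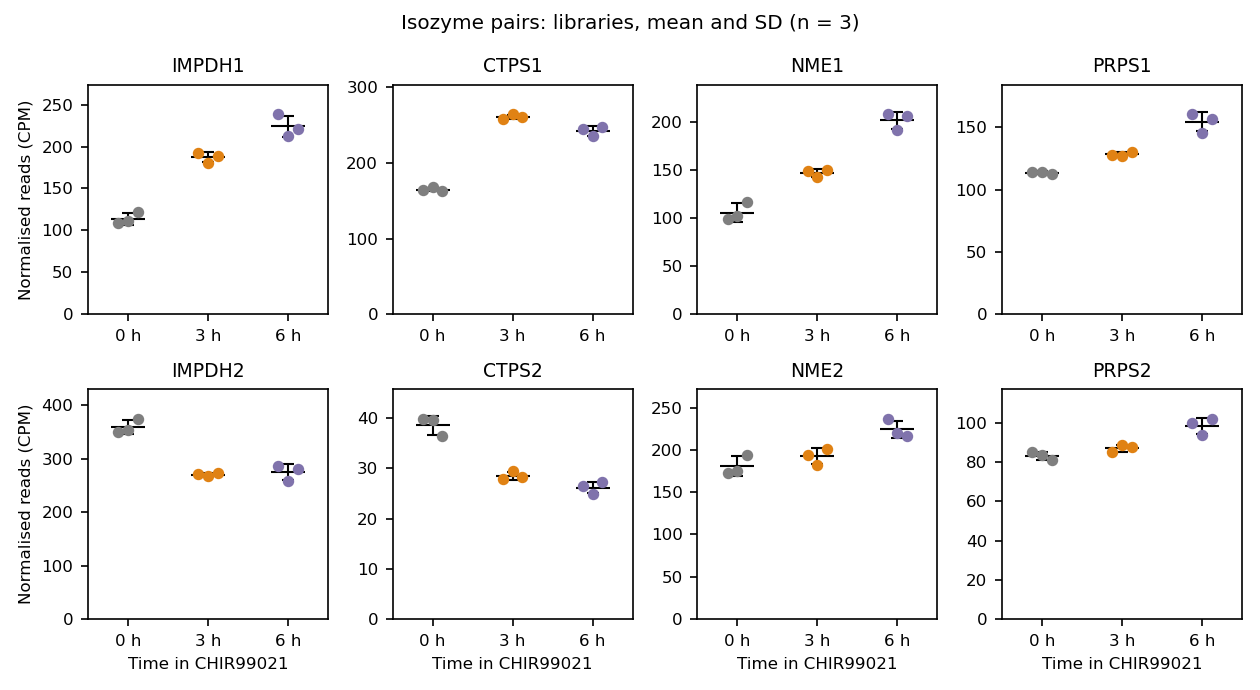
Normalised reads (CPM, TMM scaling) of 4 isozyme pairs, 1 pair per column, at 0 h, 3 h and 6 h of CHIR99021; dots are libraries, the bar is the mean and the whisker the SD of 3, and each axis starts at 0. IMPDH1 and CTPS1 stand above their untreated level in all 6 treated libraries while IMPDH2 and CTPS2 stand below theirs; in the lower row, PRPS2 and NME2 at 3 h change sign with library size alone.

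A ratio of 2 genes within a library does not depend on the scaling. The reads of IMPDH1 per read of IMPDH2 were 0.309, 0.314 and 0.325 at 0 h, 0.708, 0.677 and 0.692 at 3 h and 0.832, 0.824 and 0.786 at 6 h. This log2 ratio was 1.13 higher at 3 h and 1.36 higher at 6 h than at 0 h. The reads of CTPS1 per read of CTPS2 were 4.13, 4.23 and 4.48 at 0 h, 9.27, 8.98 and 9.18 at 3 h and 9.30, 9.44 and 9.07 at 6 h, and the log2 ratio was 1.10 and 1.11 higher at 3 h and 6 h. Reads of NME1 per read of NME2 gave log2 ratios 0.39 and 0.62 above 0 h, and those of PRPS1 per read of PRPS2 0.11 and 0.20. In each of these 8 comparisons the 3 treated ratios lay above the 3 untreated ones. The exact two-sided permutation test gave p = 0.1 for each (0.109 adjusted over 12 tests), the smallest value that 3 libraries against 3 can give, so none could pass 0.05. Between 6 h and 3 h the CTPS1 to CTPS2 ratio differed by 0.02 (exact permutation p = 0.4), with overlapping libraries.

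The 5 genes that make deoxynucleotides all rose at 3 h and at 6 h with TMM scaling, of which RRM1, DUT and DTYMK at 3 h and RRM1 and DUT at 6 h were not called under every scaling. RRM2 is the small subunit of ribonucleotide reductase whose level is known to rise in S phase. It was at 373, 374 and 364 at 0 h, 531, 535 and 535 at 3 h and 519, 498 and 535 CPM at 6 h. Its rise was in place at 3 h (log2 change 0.53, SE 0.0442, edgeR adjusted p = 1.31e-07), and the 3 h and 6 h libraries overlapped. TYMS methylates dUMP to dTMP. It was at 213, 211 and 222 at 0 h, 282, 277 and 289 at 3 h and 304, 276 and 289 CPM at 6 h and behaved likewise (log2 change 0.39, SE 0.0487, adjusted p = 6.99e-06 at 3 h, and 0.43, SE 0.0487, adjusted p = 2.42e-06 at 6 h). TYMS shares 967 bases of exon with ENOSF1 on the opposite strand, which had 14.7% of its reads and was higher at 3 h (log2 fold change 0.27) and 6 h (0.21). TYMS also shares 183 exon bases with TYMSOS on that strand, which had 2.12% of its reads. As for GART, the assignment of reads in the shared bases is uncertain. DTYMK phosphorylates dTMP. It was at 102, 104 and 118 at 0 h, 130.4, 125 and 134 at 3 h and 152, 142 and 143 CPM at 6 h (log2 change 0.26, SE 0.0601, adjusted p = 0.00146 at 3 h, lost with upper-quartile factors and library size alone, and log2 change 0.43, SE 0.0602, adjusted p = 2.05e-05 at 6 h).

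RRM1, the large subunit of the reductase, and DUT, which removes dUTP, changed least among the 5. RRM1 was at 260.4, 262 and 241 at 0 h, 274, 288 and 281 at 3 h and 319.9, 296 and 327 CPM at 6 h. Its 3 h rise of 0.14 (SE 0.0528, edgeR adjusted p = 0.0289) was lost, and its sign turned, with upper-quartile factors and library size alone, and it was also lost without untreated replicate 3 (adjusted p = 0.0673) or without 3 h replicate 6 or 7 (0.0931 and 0.0676). Removing GC and length trends also took away the 3 h calls of RRM1 (0.05, adjusted p = 0.302) and DUT (0.08, adjusted p = 0.141). DUT was at 320.0, 323 and 352 at 0 h, 362, 354 and 382 at 3 h and 401, 372 and 384 CPM at 6 h. Its rise of 0.14 (SE 0.0531, adjusted p = 0.0284) at 3 h turned sign under the same 2 scalings and was lost without untreated replicate 1 or 2 or 3 h replicate 7 (0.124, 0.115 and 0.122), and its rise at 6 h (log2 change 0.22, SE 0.0532, adjusted p = 0.00224) was lost under those scalings, with the sign turned with library size alone.

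Genes of the G1/S transition moved with these enzymes at 3 h. Of 18 listed G1/S and replication genes, 15 rose and 1 fell at 3 h (median 0.36), and 13 rose and 3 fell at 6 h (median 0.31). Their summed level ran from 4375 to 4479 CPM at 0 h, from 6117 to 6272 CPM at 3 h and from 5345 to 5804 CPM at 6 h. Between 3 h and 6 h, 9 of the 18 fell and 1 rose, where 21.9% of all genes tested fell and 21.5% rose. CDC6, a replication licensing factor, rose by a log2 change of 1.30 (SE 0.0473, edgeR adjusted p = 5.96e-11) at 3 h, and the flap endonuclease FEN1 by 1.12 (SE 0.0527, adjusted p = 4.83e-10). Of 12 genes of G2 and mitosis, 4 rose and 1 fell at 3 h (median 0.08) and 3 rose and 3 fell at 6 h (median -0.03). Over all genes tested 32.8% rose and 33.5% fell at 3 h, and 35.7% rose and 35.0% fell at 6 h. At 3 h 88.9% of the G1/S list and 41.7% of the G2 list passed, against 66.3% of all genes. In such bulk RNA a larger share of cells in S phase and more RNA per cell cannot be told apart, and the part of the cell cycle in the enzymes' change was not tested. E2F factors are known to drive S phase genes. The letters searched for them were TTTCCCGC, TTTCGCGC, TTTGCCGC and TTTGGCGC, on both strands, and 5 of 30 members held at least 1 in a promoter window (16.7%: DCK, DUT, TYMS, GART and PRPS2), against 3.99% of all genes with a window. At 3 h TYMS and DUT rose, DCK fell, and GART and PRPS2 did not pass. RRM1, RRM2, DTYMK and TK1 held none of these letters. As for CACGTG, members had more windows per gene, and the share over all genes was not limited to those tested here. CCAAT, bound by NF-Y, was in the windows of 10 of 30 members (33.3%) and 39.7% of all genes. TK1, the cytosolic thymidine kinase, is a salvage enzyme also known for its S phase expression. It was at 97.3, 98.1 and 113 at 0 h, 109.6, 99.6 and 109 at 3 h and 113, 102 and 107 CPM at 6 h, with overlapping groups at both times (log2 change 0.05, SE 0.0659, adjusted p = 0.563 at 3 h, and 0.06, SE 0.0659, adjusted p = 0.424 at 6 h). TK1 was called higher at 6 h without untreated replicate 3 (0.13, adjusted p = 0.0328) and at both times with GC and length trends removed, and lower at both times with library size alone.

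Among the nucleotide kinases, all 4 rose at 6 h and 2 at 3 h with TMM scaling, and NME1 alone was called under all 4 scalings at either time. NME1 and NME2 encode the main nucleoside diphosphate kinases, which exchange phosphate between di- and triphosphates, and lie side by side on chromosome 17. NME1 was at 99.1, 102 and 117 at 0 h, 149, 142 and 149.9 at 3 h and 208, 191 and 206 CPM at 6 h. It rose at each step (log2 change 0.47, SE 0.0625, edgeR adjusted p = 1.26e-05 at 3 h, and 0.46, SE 0.0623, adjusted p = 5.96e-05 from there to 6 h). NME2 was at 173, 175 and 194 at 0 h, 194, 182 and 201 at 3 h and 236, 219.7 and 217 CPM at 6 h, overlapping at 3 h (log2 change 0.09, SE 0.0593, adjusted p = 0.189) and higher at 6 h (log2 change 0.31, SE 0.0593, adjusted p = 0.000323, lost with library size alone), and leaving out untreated replicate 3 made it pass at 3 h (0.14, adjusted p = 0.017), as did removing GC and length trends (0.30, adjusted p = 2.04e-06). The table also holds a readthrough entry, NME1-NME2, which shares 638 exon bases with NME1 and 603 with NME2 and had 0 reads in all 9 libraries, so how reads in the shared bases were assigned is uncertain for both genes. The pseudogene NME2P1 had 5.35% of the reads of NME2 and was higher at 6 h (log2 fold change 0.31, edgeR adjusted p = 0.0101). A share of the NME2 counts may therefore be misplaced.

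CMPK1 is the UMP and CMP kinase. It was at 129, 126 and 121 at 0 h, 138, 140.5 and 140.2 at 3 h and 155, 143 and 157 CPM at 6 h. Its log2 fold changes were 0.15 (SE 0.0497, edgeR adjusted p = 0.0141) at 3 h and 0.27 (SE 0.0497, adjusted p = 0.000212) at 6 h, both lost with library size alone, which turned the sign at 3 h. The 3 h call was also lost with upper-quartile factors (adjusted p = 0.986) and with GC and length trends removed (0.04, adjusted p = 0.363). GUK1 is the GMP kinase. It was at 99.8, 103 and 122 at 0 h, 122, 112 and 122 at 3 h and 139, 125 and 127 CPM at 6 h, with 1 untreated library level with 2 of the 3 h libraries. It passed at 6 h (log2 change 0.27, SE 0.0732, adjusted p = 0.00493, lost with upper-quartile factors and library size alone) but not at 3 h (log2 change 0.13, SE 0.0732, adjusted p = 0.122), where leaving out untreated replicate 3 made it pass (0.22, adjusted p = 0.00103), as did removing GC and length trends (0.26, adjusted p = 0.000159) or using no filter (0.15, adjusted p = 0.0286).

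Salvage enzymes divided: UCK2 rose, DCK fell, and the purine phosphoribosyltransferases HPRT1 and APRT each passed in 1 comparison. UCK2 phosphorylates uridine and cytidine. It was at 111, 110.1 and 112 at 0 h, 177, 168 and 178 at 3 h and 148, 139.9 and 147 CPM at 6 h. It rose at 3 h (log2 change 0.65, SE 0.0465, edgeR adjusted p = 2.52e-08) and was lower again at 6 h than at 3 h (log2 change -0.26, SE 0.0463, adjusted p = 0.000451), still above 0 h (log2 change 0.39, SE 0.0465, adjusted p = 4.03e-06), with no overlap between any 2 times. UCK2 shares 225 exon bases with TMCO1 on the opposite strand, which had 63.2% of its reads and was higher at 3 h (log2 fold change 0.75) and 6 h (1.00). DCK phosphorylates deoxycytidine and activates nucleoside drugs such as cytarabine. It was at 400.2, 396 and 393 at 0 h, 291, 289.5 and 297 at 3 h and 246, 232 and 250 CPM at 6 h. It fell at 3 h (log2 change -0.44, SE 0.0447, edgeR adjusted p = 9.26e-07) and again by 6 h (log2 change -0.27, SE 0.0447, adjusted p = 0.000284), a total of -0.71, and per kilobase of exon it ranked 9th of the 32 genes at 6 h, against 2nd at 0 h. DCK shares 199 exon bases with MOB1B on the same strand, which had 10.6% of its reads and was lower at 6 h (log2 fold change -0.58).

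HPRT1 salvages hypoxanthine and guanine. It was at 84.4, 89.0 and 92.2 at 0 h, 92.3, 95.7 and 96.4 at 3 h and 99.2, 90.7 and 101 CPM at 6 h. Its 6 h call was marginal (log2 change 0.13, SE 0.0548, edgeR adjusted p = 0.0449), and the 6 h and 0 h libraries overlapped. The call was lost with DESeq2 size factors (adjusted p = 0.0536), upper-quartile factors and library size alone, the last 2 with the sign turned, and in 7 of the 9 fits that left out a library (adjusted p up to 0.196). It was lost as well with GC and length trends removed (adjusted p = 0.0894). At 3 h HPRT1 passed without untreated replicate 3 (0.12, adjusted p = 0.0384). APRT salvages adenine. It was at 116, 119 and 140.2 at 0 h, 129, 107 and 128 at 3 h and 154, 140.5 and 135 CPM at 6 h. It passed between 3 h and 6 h alone (log2 change 0.24, SE 0.0868, adjusted p = 0.0404), a call lost with library size alone (adjusted p = 0.0742) and without 3 h replicate 6 (adjusted p = 0.147) or 6 h replicates 9 or 10 (0.141 and 0.0695). Against 0 h APRT had -0.04 (SE 0.0867, adjusted p = 0.695) at 3 h and 0.20 (SE 0.0866, adjusted p = 0.0554) at 6 h. The 6 h value passed without untreated replicate 3 (0.29, adjusted p = 0.00506), 3 h replicate 6 (0.20, adjusted p = 0.026) or 6 h replicate 11 (0.24, adjusted p = 0.0479). It passed too with limma-voom (adjusted p = 0.0492) and with no filter (adjusted p = 0.00081). With GC and length trends removed APRT was higher at 3 h (0.21, adjusted p = 0.000316) and 6 h (0.43, adjusted p = 1.8e-07).

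**Figure D4:**
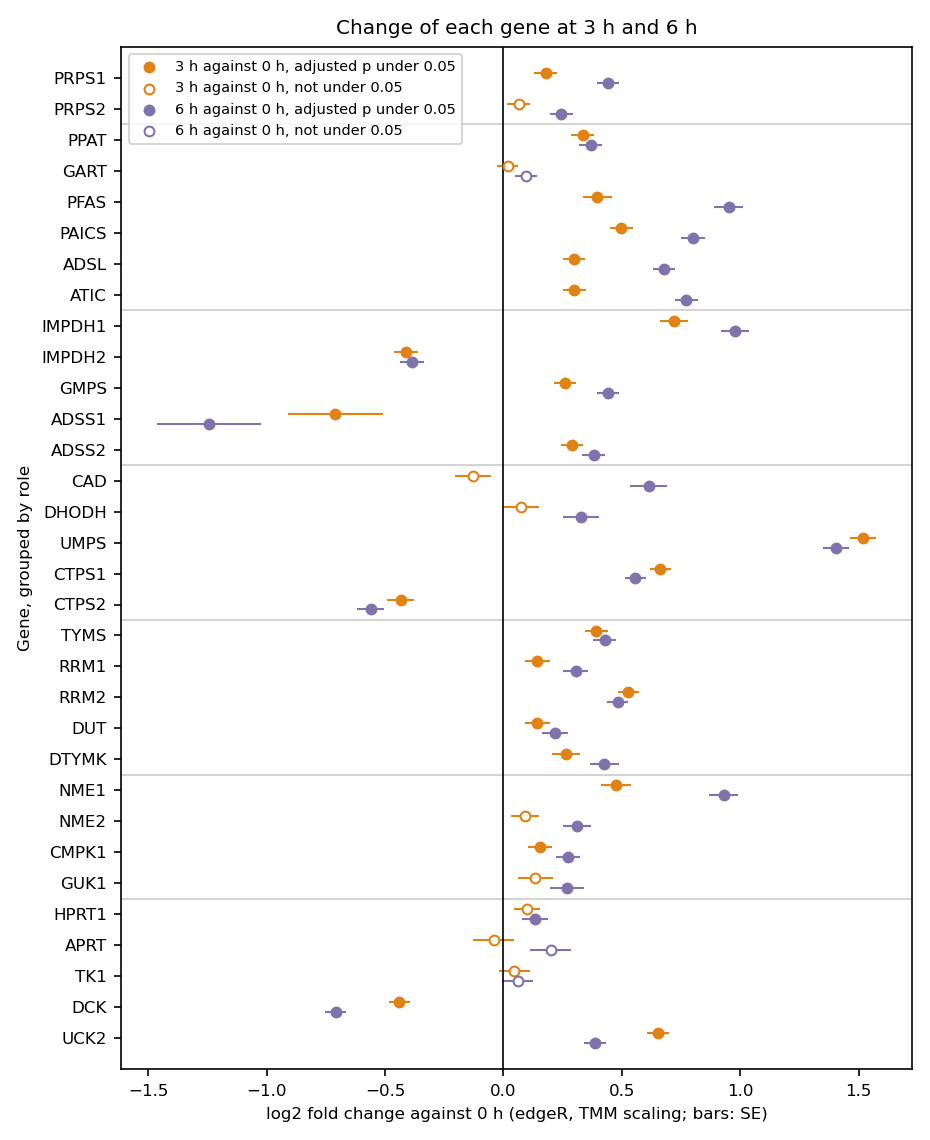
Log2 fold change against 0 h of each of the 32 genes (rows, grouped by role) at 3 h (orange) and 6 h (purple), from edgeR with TMM scaling; bars are the SE, filled dots passed an adjusted p of 0.05 over all genes. UMPS lies farthest to the right, at 1.52 and 1.40, and IMPDH2, ADSS1, CTPS2 and DCK lie left of 0 at both times; dots within about 0.2 of 0 can change sign with library size alone.

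By time course, 10 genes rose at 3 h and rose again by 6 h (PRPS1, PFAS, PAICS, ADSL, ATIC, IMPDH1, GMPS, RRM1, DTYMK and NME1). A further 8 rose at 3 h with no later change that passed (PPAT, ADSS2, UMPS, CTPS1, TYMS, RRM2, DUT and CMPK1). Another 4 passed only after 3 h (PRPS2, CAD, DHODH and NME2), 2 passed at 6 h against 0 h alone (GUK1 and HPRT1), 1 between 3 h and 6 h alone (APRT), and GART and TK1 passed in none of the 3 comparisons. Of the genes that fell, DCK did so in 2 steps, while IMPDH2, ADSS1 and CTPS2 had no change that passed between 3 h and 6 h. The later step of RRM1 was lost without 3 h replicates 5 or 7 or 6 h replicates 9 or 11 (adjusted p = 0.0679 to 0.0992), that of DTYMK without any 1 of the 6 treated libraries (0.0555 to 0.144), and that of DHODH without 3 h replicate 5 or 6 h replicate 11 (0.0541 and 0.0802). Without untreated replicate 3, the later step also passed for UMPS, CTPS1 and CTPS2 (lower) and for CMPK1 and GUK1 (higher), with adjusted p of 0.0208 to 0.0476. CMPK1 passed as well without 6 h replicate 10 (0.0190).

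**Figure D5:**
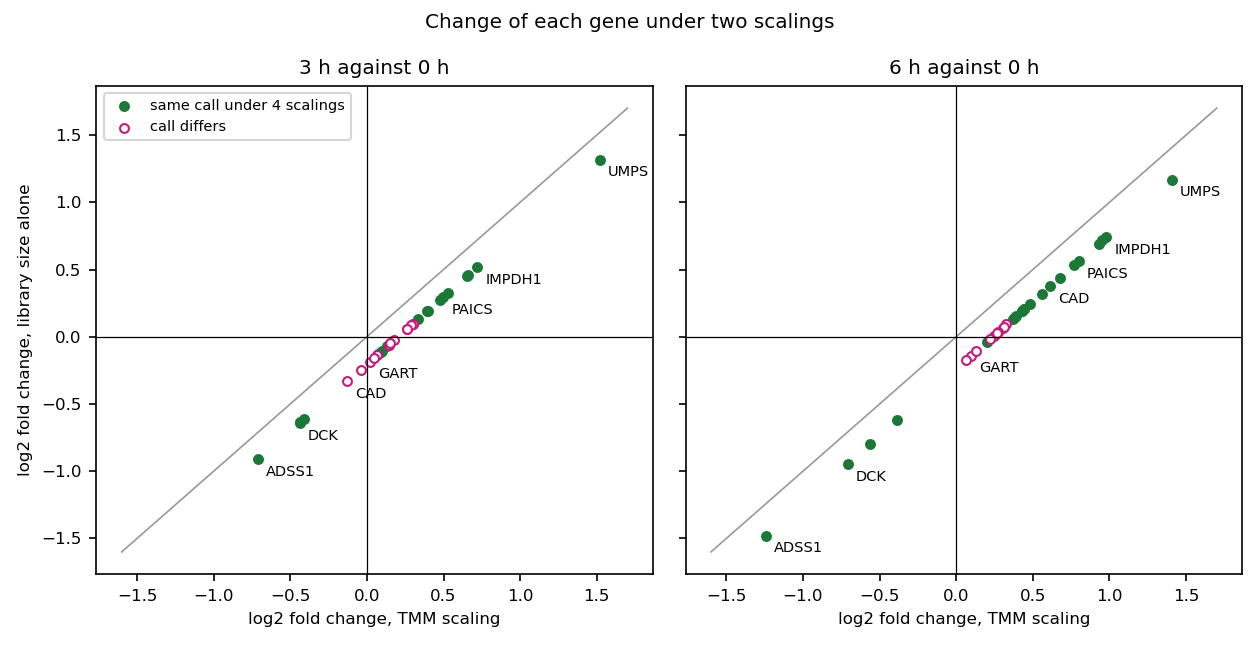
Log2 fold change of the 32 genes with TMM scaling (x axis) against that with library size alone (y axis), at 3 h (left) and 6 h (right) against 0 h; the grey line marks equal values, filled dots had the same call under 4 scalings and open dots did not. All dots lie below the line by about the shift of the median gene, so that 11 genes at 3 h and 5 at 6 h change sign among the 4 scalings.

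The genes around these pathways did not move as 1 group. The lists below were counted for direction beside the background given above, with no test of the list. Among 9 tested genes of pentose phosphate supply and PRPP synthase-associated proteins, 3 rose and 4 fell at 3 h, and 3 rose and 3 fell at 6 h (median -0.01 and 0.08). RPIA, the isomerase that makes ribose 5-phosphate for PRPP, rose to 116 ± 6.78 CPM at 6 h, against 65.5 ± 2.99 CPM at 0 h (log2 change 0.82, SE 0.0566, edgeR adjusted p = 1.35e-08). PRPSAP2, which binds the PRPP synthetases and is thought to restrain them, fell to 29.2 ± 2.10 CPM, against 55.6 ± 0.297 CPM (log2 change -0.93, SE 0.0559, adjusted p = 3.43e-09). Of 10 tested folate genes, which supply the one-carbon units of purine and dTMP synthesis, 4 rose and 2 fell at 3 h, and 5 rose and 4 fell at 6 h (median 0.05 and 0.09). The reduced folate carrier SLC19A1 rose to 63.1 ± 3.11 CPM at 6 h, against 27.4 ± 1.06 CPM at 0 h (log2 change 1.204, SE 0.0613, adjusted p = 6.71e-10). Mitochondrial MTHFD2 fell to 472 ± 23.0 CPM, against 839 ± 5.52 CPM (log2 change -0.83, SE 0.0495, adjusted p = 3.09e-09).

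Of 8 genes of dNTP supply and pool sanitation, 4 rose and none fell at 3 h, and 5 rose and 1 fell at 6 h (median 0.23 and 0.39). DCTPP1, a dCTP pyrophosphatase, rose by a log2 change of 1.06 (SE 0.075, edgeR adjusted p = 2.4e-08) at 6 h, and SAMHD1, which degrades dNTPs, rose to 116 ± 6.98 CPM, against 58.8 ± 2.69 CPM at 0 h (log2 change 0.98, SE 0.0563, adjusted p = 2.06e-09). Of 14 tested breakdown genes, 3 rose and 3 fell at 3 h, and 4 rose and 6 fell at 6 h (median -0.02 and -0.09). The purine nucleoside phosphorylase PNP rose to 302 ± 12.01 CPM at 6 h, against 150 ± 6.74 CPM at 0 h (log2 change 1.01, SE 0.0506, adjusted p = 5.74e-10), and the adenosine deaminase ADA fell (log2 change -0.69, SE 0.0659, adjusted p = 4.05e-07).

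Other salvage enzymes also divided, with 2 of 8 higher and 3 lower at 3 h, and 3 higher and 2 lower at 6 h (median -0.09 and 0.06). MTAP, which recovers adenine from methylthioadenosine, rose to 134 ± 4.36 CPM at 6 h, against 70.8 ± 4.78 CPM at 0 h (log2 change 0.92, SE 0.0556, edgeR adjusted p = 3.46e-09). TK2, the mitochondrial thymidine kinase, fell to 4.10 ± 0.358 CPM, against 11.3 ± 0.105 CPM (log2 change -1.46, SE 0.0785, adjusted p = 1.1e-09). Of 8 tested further nucleotide kinases, 4 rose and 3 fell at each time against 0 h (median 0.08 and 0.17). Among 4 tested nucleoside transporters, 1 rose and 2 fell at each time (median -0.42 and -0.31). The equilibrative transporter SLC29A1 rose to 213 ± 8.27 CPM at 6 h, against 97.8 ± 2.97 CPM at 0 h (log2 change 1.12, SE 0.0494, adjusted p = 1.8e-10), while SLC29A3 fell (log2 change -0.67, SE 0.0864, adjusted p = 8.59e-06).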

How the data were processed

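The measurement was RNA-seq of 9 libraries, for which the authors deposited 1 table of raw counts per Ensembl gene. GSNAP aligned the reads to hg19 and HTSeq 0.6.0 counted them, per the submitters' processing notes, which also list limma 3.30.0. The annotation release, strand setting and counting mode are not given in the sources used here. Of all reads, 67.6% to 70.9% lay in genes; the 5 HTSeq summary entries stayed out of library sizes and tests. The tests used edgeR 4.0.16 (R 4.3.3) with filterByExpr (minimum count 10, minimum total 15), TMM factors and a robust quasi-likelihood fit over all 9 libraries, with a mean for each time and 6 residual degrees of freedom. They were two-sided, with Benjamini-Hochberg adjustment over all 15847 genes and a threshold of 0.05. The SE is the log2 fold change divided by the square root of F. The series calls its replicates biological but names no separate cultures, so p-values measure the spread between these libraries, which may in part be technical.

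Alternatives were DESeq2 (1.42.0), voom in limma 3.58.1, 3 other scalings, 2 other filters, fits of only the libraries compared, a minimum fold (1.2) and each library left out in turn. A fit with trends in GC content and length taken out was chosen after seeing the data. Exon lengths and overlaps came from GENCODE 29 (GRCh38), matched by identifier. An exon length is that of all annotated exons of a gene merged, and it can exceed that of the transcript present. The counts used an annotation that is not named, so levels and ranks per kilobase are approximate. Promoter sequences came from RefSeq (GRCh38.p14), where 30 of 32 members matched. The members and the 13 gene lists were chosen with earlier results of these data known. The named genes are all 32 members, MYC, defining cell markers, genes that share sequence with a member and, from each pathway list, some of the 3 called genes with the smallest adjusted p per comparison. Some genes that this rule selects are not reported here.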

Additional observations from a re-analysis of the deposited data

Results flagged for a closer look

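In CAD and UCK2 the change between 3 h and 6 h passed the test and ran opposite in sign to the value at 3 h against 0 h. The same held for APRT (-0.04 at 3 h and 0.24 between 3 h and 6 h), whose value at 6 h against 0 h did not pass. CAD had a log2 fold change of -0.13 at 3 h and 0.61 at 6 h, and the 6 h value exceeded the 3 h value by 0.743 (SE 0.0766, edgeR adjusted p = 7.5e-06), with all 3 libraries at 6 h above all 3 at 3 h. UCK2 had 0.65 at 3 h and 0.39 at 6 h, a difference of -0.263 (SE 0.0463, edgeR adjusted p = 0.000451), with all 3 libraries at 6 h below all 3 at 3 h. No explanation of either was tested.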

How the results depend on the processing

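With library size alone, members at 3 h were 11 higher and 9 lower, and between 3 h and 6 h 5 were lower. Over all 15847 genes that scaling gave 3468 higher and 7451 lower at 3 h, and 3963 lower between 3 h and 6 h. Among results called with TMM or with library size alone, library size turned the sign at 3 h of PRPS1 (-0.0244), PRPS2 (-0.14), GART (-0.18), RRM1 (-0.0600), DUT (-0.0593), CMPK1 (-0.0484) and TK1 (-0.16), and at 6 h against 0 h of GART (-0.14), DUT (-0.0193), HPRT1 (-0.11) and TK1 (-0.18). With no call under either, it also turned DHODH, NME2, GUK1 and HPRT1 at 3 h, APRT at 6 h, and IMPDH2, HPRT1 and TK1 between 3 h and 6 h. Upper-quartile factors turned GART (-0.13), RRM1 (-0.0106) and DUT (-0.0106) at 3 h and HPRT1 (-0.0164) at 6 h and, with no call under either, PRPS2, DHODH, NME2, GUK1, HPRT1 and TK1 at 3 h and GART and TK1 at 6 h. Removing GC and length trends turned APRT at 3 h (0.21, adjusted p = 0.000316). Of 96 member results, 66 kept their call when tested against a minimum fold of 1.2, 68 with library size alone and 82 with upper-quartile factors. With the minimum fold, 13 members changed at 3 h, 9 of them higher, where 45.8% of all genes changed and 21.8% were higher. Between 3 h and 6 h that test left 2504 genes and 5 members changed, 5 higher and 0 lower, where the test against no change left 2 lower. Those 2504 genes were 15.8% of all genes tested, and 7.17% of all genes were higher. Fitting only the compared libraries gave 5 lower members between 3 h and 6 h, where 4069 of 15073 genes were lower. Leaving out 1 library gave 2 to 5 lower members between 3 h and 6 h. The 5 came without untreated replicate 3, where 4095 of 16045 genes were lower. Higher members then numbered 17 to 22 at 3 h and 24 to 27 at 6 h. Over all genes 30.2% to 33.1% were higher at 3 h and 33% to 36% at 6 h. Genes changed then numbered 9747 to 10761, 10601 to 11578 and 5739 to 8103 in the 3 comparisons. DESeq2 kept the call of 94, limma-voom and DESeq2 size factors of 95 each, and no filter of 94. With 14 to 67 reads per library, ADSS1 is the member whose values counting limits most. No paired analysis was made, because the replicate numbers differ between the groups and the labels do not say whether libraries of different times belong together.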
